A study of Mus musculus with 15 samples.

Results

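Near-constitutive core exons are the exons that almost every transcript of a gene keeps. Here they were the core exon events of at least 28 bases whose percent spliced in (PSI) averaged over 0.95 in the authors' splicing table, in genes whose level averaged at least 10 CPM (counts scaled to a library total of 1000000). The exons were thus selected on their PSI values and on gene level. The rule found 73858 exons in 7551 genes, among 108413 core exon events and 138940 events of every type. PSI is the fraction of a gene's transcripts that hold the exon, so residual skipping is written below as 100 × (1 − PSI), in percent. PSI values and the choice by level are therefore given as a description and carry no test; the gene levels tested below compare the groups, not the mean that the rule used.

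The cells were CD8+ T cells from OT-I Tg C57BL/6J mice, whose transgenic receptor recognises an ovalbumin peptide, transferred into C57BL6/J recipients. The 5 Ag libraries came from recipients given antigen only, and the 5 Ag+Costim libraries from recipients given antigen with agonist antibodies against OX40 and 41BB. Cells of both groups were sorted from spleen and lymph nodes, on day 4 by the labels; the study's methods give a shorter time, peptide antigen with rat IgG in the antigen-only recipients and donors lacking a Rag gene. All cells therefore shared the OT-I transgene, the transfer and the antigen, and libraries of untransferred naive cells were not used here.

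Most mammalian exons are recognised as units. The U1 small nuclear ribonucleoprotein binds the donor site after the exon, U2AF binds the acceptor site before it, and serine/arginine-rich (SR) proteins on the exon bridge the complexes, a process called exon definition. Cassette exons often have weaker or repressed sites and are skipped in part of the transcripts, whereas the exons described here are nearly always joined to both neighbours.

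The junctions below belong to exons named for a difference between the groups. The Trp53bp1, Ctdspl2 and Trappc6b exons were called in the test across libraries, though not in every alternative fit. They passed its filter on skipped counts only through Ag+Costim, so they could be called only as more skipped there. For the Trappc6b exon the PSI table had the opposite direction. The Pbrm1 and Heatr5b exons were among the largest PSI differences, which have no replicate check. Each line holds 15 bases on either side of an exon boundary in mature RNA, 5′ to 3′, from the GENCODE M21 transcripts (GRCm38, equivalent to mm10), with bases of the exon in capitals and bases of the neighbouring exons in lower case. The skip lines join the neighbours without the exon, as an annotated spanning transcript does. The exons lie at chr2:121208355-121208504 on the minus strand (Trp53bp1), chr2:121981152-121981364 on the plus strand (Ctdspl2), chr12:59044253-59044346 on the minus strand (Trappc6b), chr14:31061469-31061745 on the plus strand (Pbrm1) and chr17:78820621-78820871 on the minus strand (Heatr5b).
Trp53bp1 upstream junction: cccaggaaaactgagTCCTAGAAAAGGGAT
Trp53bp1 downstream junction: GACCACTGGAACCAGagaaacagttgtctc
Trp53bp1 skip junction: cccaggaaaactgagagaaacagttgtctc
Ctdspl2 upstream junction: cagcaaataaaaatgGAACGTCAGGCTCAG
Ctdspl2 downstream junction: TCCCACCCCTTACAGcaccagtaactccag
Ctdspl2 skip junction: cagcaaataaaaatgcaccagtaactccag
Trappc6b upstream junction: gaacatgcgtccaagTATCTAGCATTCACA
Trappc6b downstream junction: CTTCAATGCCTGCCTgcaaatttcaggtga
Trappc6b skip junction: gaacatgcgtccaaggcaaatttcaggtga
Pbrm1 upstream junction: tgccaaaaggaaaagTAAAAAGAACATAAG
Pbrm1 downstream junction: GAGGAGGGCTCCCAGgtatacaatgatgcc
Heatr5b upstream junction: aggaagcgtccatagGACTTTTGGAGATTG
Heatr5b downstream junction: CATGCCAAAGGAAAGatggtggtcagcatt
The Trp53bp1, Ctdspl2, Pbrm1 and Heatr5b exons end in AG, the most usual last bases before a donor site, and the Trappc6b exon ends in CT. Among all near-constitutive exons with an annotated transcript, 57.1% ended in AG and 80.6% in G, and CAG (23.7%) and AAG (20.1%) were the most frequent last 3 bases.

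The libraries differed in depth and evenness. Total estimated counts, in units of 1000000, were 59.6 to 449.4 in the Ag and 332.3 to 639.1 in the Ag+Costim libraries, with a count for 20714 to 51778 genes in Ag and 28727 to 30340 in Ag+Costim. The summed level of 5 defining CD8 T cell genes was 2723 to 5264 TMM-normalised CPM in Ag and 3656 to 4436 in Ag+Costim, and Cd4 stayed at or under 5.07 in every library. Genes of other cells were present in some libraries: the 5 B cell genes summed to 17.5 to 293 CPM in Ag and 14.4 to 31.9 in Ag+Costim, the 5 erythroid genes to 14.7 to 1102 and 3.8 to 39.4, and the 5 myeloid genes to 35.4 to 94.8 and 65.2 to 139. None of these genes was at 0 in every library, and their part in the results below was not tested. In such bulk samples, fewer cells of a type and less RNA per cell cannot be told apart.

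Near-constitutive exons were of usual size and place. Their median length was 120 bases (quartiles 89 and 161), 38.1% had a length that is a multiple of 3, and their median GC content was 50%. In the most abundant transcript that holds them, 93.2% were wholly coding, 3.73% partly coding, 0.662% lay in the 5′ UTR and 0.898% in the 3′ UTR. Cassette exons with the same limits of length and gene level and a mean PSI of 0.05 to 0.95 were not matched by gene. They were wholly coding in 85.6% of 1909 frame-preserving and 76.8% of 2234 frame-shifting cases. The median introns before and after a near-constitutive exon were 1221 and 1127 bases, against 1725 and 1739 around frame-preserving and 1856 and 1792 around frame-shifting cassette exons. These are descriptions of sets that the PSI rule separates.

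Residual skipping was small and mostly higher in Ag. Its median over exons was 0.349% in Ag and 0.176% in Ag+Costim, with quartiles of 0.123 and 0.95% in Ag and 0.060 and 0.541% in Ag+Costim. Skipping was higher in Ag for 65418 exons, or 88.6%, and higher in Ag+Costim for 8348; among all 78477 core exons of the expressed genes the share higher in Ag was 86.2%. A gap of at least 1 percentage point was found for 7460 exons toward Ag and 1670 toward Ag+Costim, which is 10.1 and 2.26% of the near-constitutive exons, against 11.7 and 4.35% of all core exons in these genes. The cassette exons showed no such lean: 47.7% of the frame-preserving ones had more skipping in Ag, with medians of 12.6 and 12.3%, and 50.8% of the frame-shifting ones, with medians of 9.17 and 9.12%. The table holds 1 PSI per group, so none of these differences has a replicate check.

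The lean toward Ag sat mainly in exons for which the table lists no alternative path. Its entropy score measures how evenly reads divide between the paths through an event and is 0 where only 1 path was found. Entropy was 0 for 55885 of the near-constitutive exons (75.7%), and in these skipping was higher in Ag for 98.0%, with medians of 0.274% in Ag and 0.131% in Ag+Costim. Of the 17973 exons with an entropy above 0, 59.3% had more skipping in Ag, with medians of 0.743 and 0.519%. Gaps of at least 1 percentage point numbered 4378 toward Ag and 269 toward Ag+Costim at entropy 0, and 3082 and 1401 above it. With the entropy above 1, where several paths carry reads, 55.5% of 2847 exons had more skipping in Ag.

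**Figure D1:**
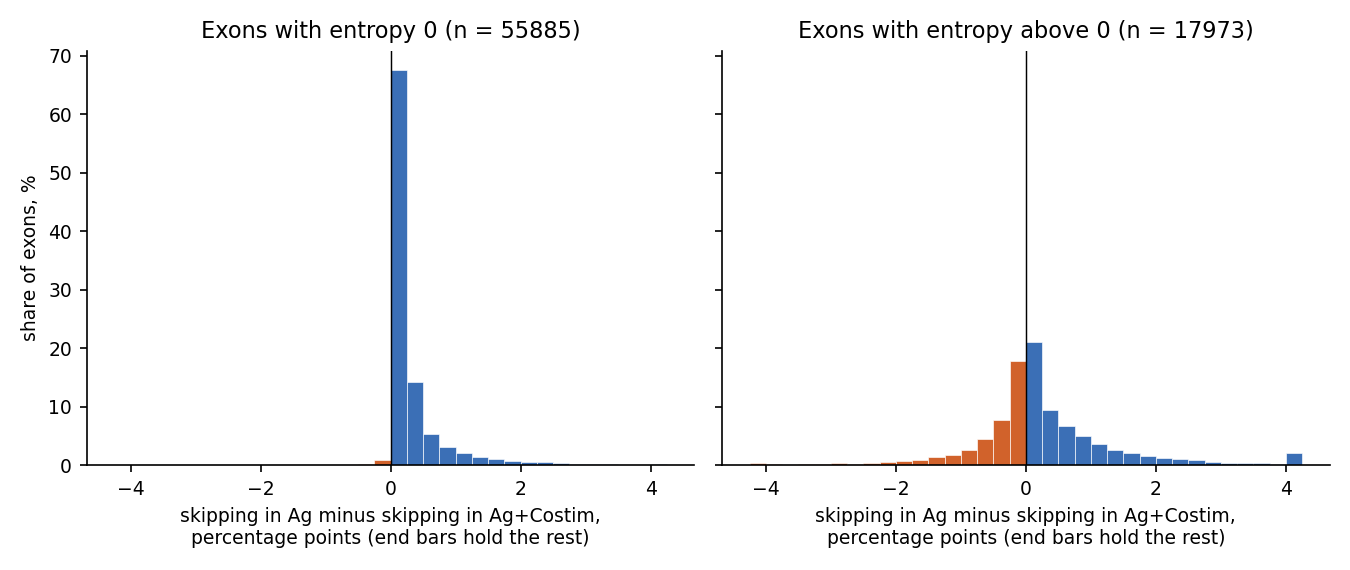
Share of near-constitutive exons (vertical axis, %) by skipping in Ag minus skipping in Ag+Costim (horizontal axis, percentage points; blue, higher in Ag; orange, higher in Ag+Costim; the end bars hold all larger gaps). At entropy 0 (left) 98.0% of the exons lie on the Ag side, and above it (right) 59.3%.

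Residual skipping fell as the level of the gene rose, and the group gap shrank with it. At entropy 0 the medians were 1.27% in Ag and 0.644% in Ag+Costim in genes of 10 to under 20 CPM, 0.20 and 0.096% at 50 to under 100 CPM, and 0.013 and 0.005% at 500 CPM or more. Skipping followed the mean count of the gene across these exons, with a Spearman correlation of −0.80 in Ag and −0.84 in Ag+Costim over 55885 exons, many of which share a gene. The skipped fraction multiplied by the gene's mean count had a median of 38.6 in Ag and 31.6 in Ag+Costim, so it differed less between the groups than skipping itself did. The median gene count behind these exons was 15451 in Ag and 24847 in Ag+Costim. Across the same exons, the Ag to Ag+Costim ratio of skipping fell as that of the counts rose (Spearman correlation −0.76), and above entropy 0 this relation was weaker (−0.19, 17973 exons). Depth thus moved with the lean toward Ag, and its part in it was not tested.

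**Figure D2:**
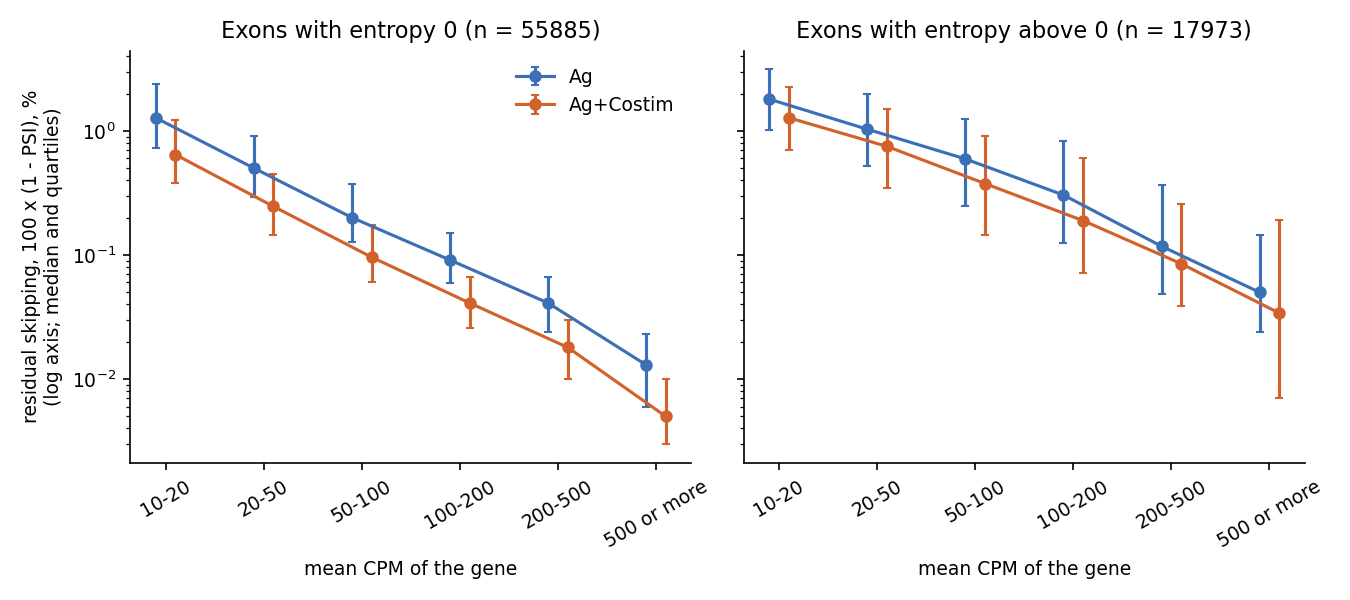
Residual skipping (vertical axis, %, log scale) by the mean CPM of the gene (horizontal axis, 6 classes) for exons of entropy 0 (left) and above 0 (right). Points are medians and bars the quartiles over exons in Ag (blue) and Ag+Costim (orange); at entropy 0 the medians fall from 1.27 and 0.644% to 0.013 and 0.005%.

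In highly expressed genes the larger gaps of exons with alternative paths were more evenly divided, while most of these exons were still higher in Ag. Above entropy 0 and at 100 CPM or more, 4608 exons had median skipping of 0.202% in Ag and 0.131% in Ag+Costim and 58.5% were higher in Ag, and 221 against 176 passed 1 percentage point toward Ag and toward Ag+Costim. From 200 to under 500 CPM the count was larger toward Ag+Costim, at 28 against 43, and likewise at 500 CPM or more, at 5 against 11. In these classes 57.5% of 1462 and 58.4% of 435 exons had the higher value in Ag. Over all gene levels, exons skipped more often also had longer introns. Above entropy 0, the median intron before the exon was 906 bases where mean skipping was under 0.1%. It was 1516 bases at 0.1 to under 1% and 1927 bases at 1% or more. The share with an annotated spanning transcript was 10.6, 14.9 and 24.1% in these classes. Gene level differed too: over near-constitutive exons of any entropy its median was 154, 45.8 and 23.0 CPM in the 3 skipping classes. The part of gene level in these trends was not tested.

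The exons at the limits of the rule show how it divides. Just inside the PSI limit was an exon of Chd9 (PSI 0.93483 in Ag and 0.96519 in Ag+Costim), a chromatin remodeller. Just outside were exons of Dmxl1 (0.95801 and 0.94198) and Aim2 (0.96454 and 0.93539), a sensor of cytosolic DNA. At the CPM limit, St7 and Mdc1 passed at 10.01 and 10.02 CPM, and Pank3 and Gm42688 at 9.998 and 9.985 CPM did not; Gm42688 overlaps Ccdc142. At the length limit, the exons of 28 bases of Arhgap4 and Use1 were kept, and those of 27 bases of Glipr1 and U2af1l4, whose residual skipping lay between 0.272 and 1.61%, were not.

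The largest PSI differences toward Ag were found in Srp54b, Heatr5b and Arhgap10. Exon 11 of 16 of Srp54b, a copy of the signal recognition particle subunit SRP54, is 87 bases long (chr12:55177528-55177614, plus strand), and its skipping was 8.62% in Ag and 0.032% in Ag+Costim. Since near-identical Srp54 copies share reads, this value is uncertain. Exon 10 of 36 of Heatr5b, an endosomal trafficking factor, was skipped in 8.97% of transcripts in Ag and 0.463% in Ag+Costim. Exons 5 and 6 of 23 of Arhgap10, a GTPase-activating protein, were skipped in 8.81 and 8.69% in Ag and 0.448 and 0.447% in Ag+Costim (chr8:77426330-77426431 and chr8:77420637-77420747, minus strand). The Arhgap10 exons did not stand alone, since 15 of its 17 near-constitutive exons passed 1 percentage point toward Ag, in a gene of 12.0 CPM. In Heatr5b, 2 of 34 did.

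Large differences toward Ag+Costim were found in exons of Pbrm1, Clip1 and Ipp. Exon 16 of 31 of Pbrm1, a subunit of the PBAF chromatin remodeller, is 277 bases long, and its skipping was 0.153% in Ag and 9.08% in Ag+Costim. Exon 17 of 24 of Clip1, a microtubule plus-end protein, had 0.498 and 8.22% (chr5:123609239-123609345, minus strand), and exon 2 of 9 of Ipp, an actin-binding kelch protein, had 0.356 and 7.37% (chr4:116510530-116510863, plus strand). In Pbrm1 and Clip1 no other near-constitutive exon passed 1 percentage point, out of 26 and 21 exons. In Ipp, 2 of 7 exons passed it toward Ag and 2 toward Ag+Costim, the exon named here included. None of the exons described here for their PSI difference has an annotated spanning transcript, so the transcript counts could not give a value per library for them.

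Skipping could be followed in each library for the 6814 exons (9.23%) that an annotated transcript of the gene spans. The most abundant spanning transcript was typed protein_coding for 3560 exons, nonsense_mediated_decay for 1522, processed_transcript for 1441 and retained_intron for 280. Summed over these exons, the share of counts on spanning transcripts was 1.38, 1.10, 1.45, 1.29 and 1.17% in the Ag libraries and 1.28, 1.25, 1.29, 1.19 and 1.27% in the Ag+Costim libraries. All the Ag+Costim libraries lay within the range of the Ag libraries, with a mean ± SD over 5 libraries of 1.28 ± 0.146% and 1.26 ± 0.042%. The gap of 0.022 percentage points did not exceed the SD of either group, and without Ag replicate 1 or 3 its sign turned, at −0.0041 and −0.021, as it did on the mean over exons (−0.042) and with only protein_coding spanning transcripts (−0.061).

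**Figure D3:**
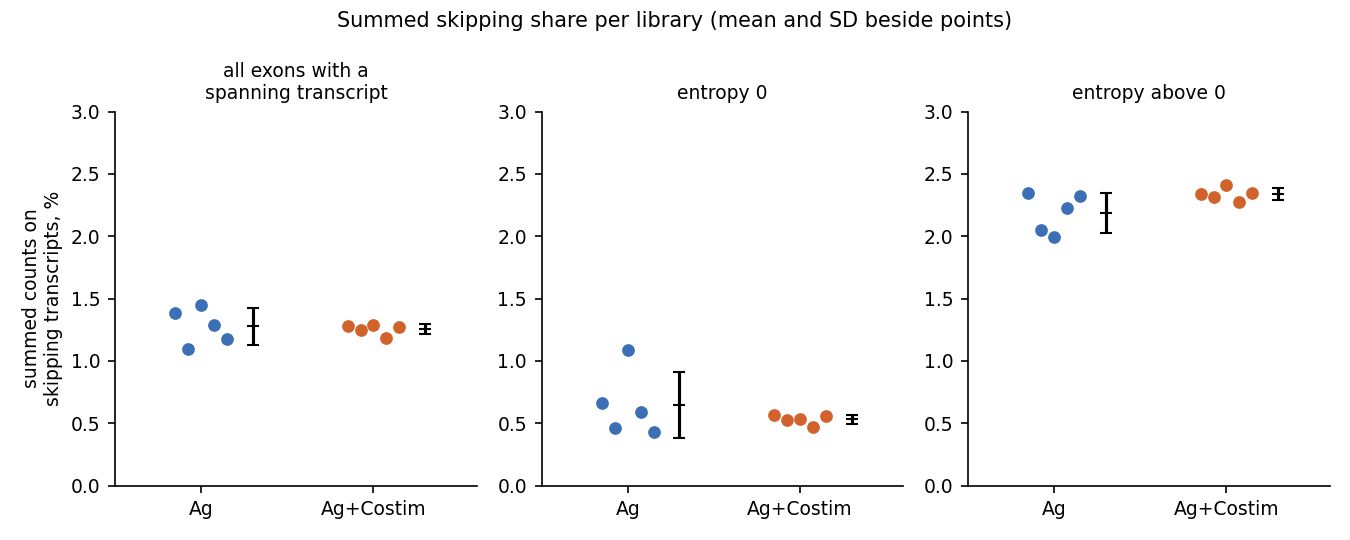
Share of summed transcript counts on transcripts that skip a near-constitutive exon (vertical axis, %) in each library (points), for all 6814 exons and for those of entropy 0 and above 0; bars are mean and SD of 5 libraries. The Ag+Costim points lie within the Ag range in the first 2 panels.

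The exon classes went different ways in this measure. For the 3570 exons of entropy 0 the summed share was 0.661, 0.461, 1.09, 0.588 and 0.427% in Ag and 0.472 to 0.564% in Ag+Costim, and Ag replicate 3, the shallowest library, was the highest. For the 3244 exons of entropy above 0 it was 2.35, 2.05, 1.99, 2.22 and 2.32% in Ag and 2.34, 2.32, 2.41, 2.27 and 2.35% in Ag+Costim, a mean ± SD of 2.19 ± 0.159 and 2.34 ± 0.051. The groups overlapped in both classes. Counting only spanning transcripts typed protein_coding, the share was 0.670 to 0.786% in Ag and 0.770 to 0.819% in Ag+Costim. A spanning transcript had a count for 2276 to 3001 of the 6814 exons in the Ag libraries and for 3125 to 3335 in the Ag+Costim libraries, which did not overlap; the libraries also differed in depth, and its part was not tested.

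Inclusion per library was tested for the exons with enough counts on spanning transcripts. limma was fitted to the log2 ratio of included to skipped counts of 6996 core exons, of which 3161 in 1885 genes were near-constitutive. Over all exons tested 0.0715% were called at an adjusted p under 0.05, and 4 near-constitutive exons were called, each more skipped in Ag+Costim (0.0572% of all exons tested were called in that direction). At an unadjusted p under 0.05 there were 294 near-constitutive exons (9.30%, against 8.66% of all exons tested), 210 of them more skipped in Ag+Costim and 84 in Ag (6.64 and 2.66%, against 5.57 and 3.09% of all exons tested). The libraries of the groups did not overlap for 31 exons higher in Ag and 47 higher in Ag+Costim (0.981 and 1.49%, against 0.929 and 1.44% of all exons tested). All exons tested include the near-constitutive ones, and the 4 called exons are themselves the 0.0572%. Among the 3835 other core exons tested, 1 was called, more included in Ag+Costim. Of these others 8.14% had an unadjusted p under 0.05, 4.69% more skipped in Ag+Costim and 3.44% in Ag. Their libraries did not overlap for 0.887% higher in Ag and 1.41% higher in Ag+Costim, which is near the shares of the near-constitutive exons.

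The 4 called exons had no count on the spanning transcript in any Ag library. They therefore passed the filter on skipped counts only through Ag+Costim, the group in which they are high, and had to differ in that direction. Of the 3161 exons tested, 422 passed it in this way through Ag+Costim and 106 through Ag. The Trp53bp1 exon (ENSMUSG00000043909.16), exon 20 of 28 and coding, is 150 bases long, a multiple of 3. Trp53bp1 encodes 53BP1, which steers DNA double-strand break repair toward end joining. The exon was skipped in 0% of counts in all 5 Ag libraries and in 3.59, 43.07, 18.49, 15.51 and 21.38% in the Ag+Costim libraries (20.4 ± 14.4, SD, n = 5). The lowest Ag+Costim library lay above all Ag libraries, although the Ag+Costim values spread widely. The counts are estimates from coverage, so 0 in Ag sets no bound on the size of the difference. The adjusted p of limma was 0.000653. The PSI table put its skipping at 0.922% in Ag and 7.29% in Ag+Costim, in the same direction.

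The other called exons were skipped less. The Ctdspl2 exon (ENSMUSG00000033411.16) is 213 bases long and belongs to a gene for a phosphatase of the RNA polymerase CTD phosphatase family; the most abundant transcript that holds it has no coding sequence. It was skipped in 0% of counts in each Ag library and in 1.25, 5.02, 2.54, 5.07 and 4.30% in the Ag+Costim libraries (3.63 ± 1.68), with an adjusted p of 0.000653 in limma. Its PSI table values were 0.301 and 1.03%. The Trappc6b exon (ENSMUSG00000020993.9), exon 5 of 6, is 94 bases long, which is no multiple of 3, and encodes part of a vesicle tethering complex. It had 0% in each Ag library and 9.98, 15.08, 8.58, 3.10 and 10.09% in the Ag+Costim libraries (9.37 ± 4.28), with an adjusted p of 0.000653 in limma. Here the measures differed, since the PSI table gave 0.067% in Ag and 0.035% in Ag+Costim with an entropy of 0. The Mpv17 exon (ENSMUSG00000107283.3; chr5:31144700-31144752, minus strand), in a gene for an inner mitochondrial membrane protein, is 53 bases long and overlaps Gm29609, so its counts are uncertain. It had 0% in each Ag library and 1.41, 1.33, 1.29, 1.25 and 2.31% in the Ag+Costim libraries (1.52 ± 0.444), with an adjusted p of 0.00330 in limma. The PSI table gave 0.197% in Ag and 0.594% in Ag+Costim.

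The calls depended on the fit. On the untransformed percent 0 near-constitutive exons were called, with quality weights per library 32, and with a pseudocount of 10 the Mpv17 exon was lost (limma, adjusted p = 0.128). Without the filter on skipped counts the 4 were still called, and leaving out Ag replicate 1, 2, 4 or 5 or Ag+Costim replicate 1 or 4 gave 8, 9, 9, 34, 9 and 8. Between the measures, the mean skipping over 3161 exons had a Spearman correlation of 0.37 in Ag and 0.36 in Ag+Costim and that of the group difference was 0.25; both measures come from the same reads.

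**Figure D4:**
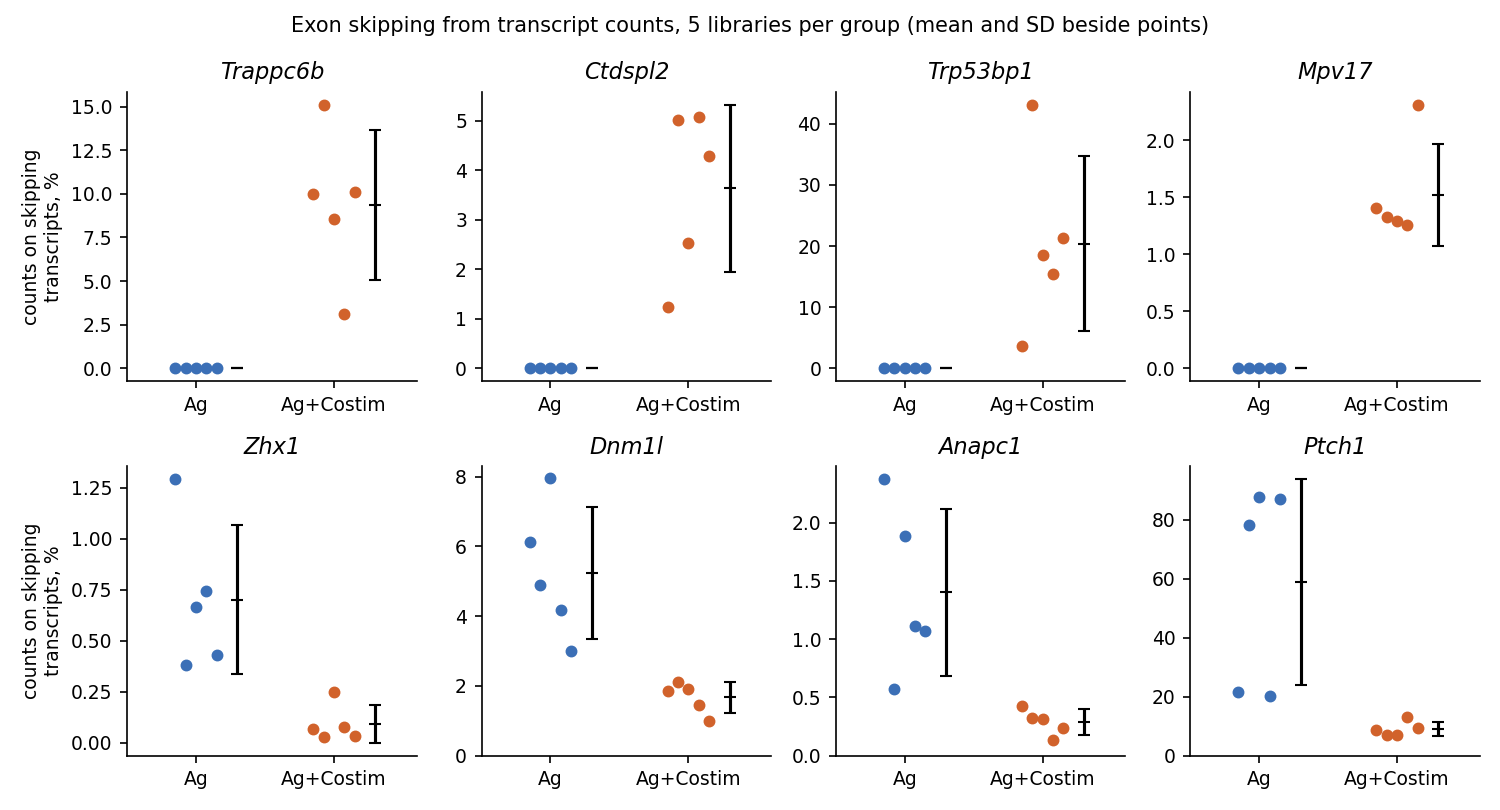
Share of counts on transcripts that skip the exon (vertical axis, %; scales differ) in 5 Ag and 5 Ag+Costim libraries (points; bars, mean and SD). The upper row holds the 4 called exons, at 0% in every Ag library, and the lower row 4 exons skipped more in every Ag library than in any Ag+Costim library, which did not pass the adjusted threshold.

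Among exons with more skipping in every Ag library than in any Ag+Costim library, those of Zhx1, Dnm1l, Anapc1 and Ptch1 had the lowest adjusted p, which was 0.241 for each, so none passed. The exon of Dnm1l (chr16:16341422-16341468, minus strand), the GTPase of mitochondrial fission, was skipped in 6.13, 4.90, 7.95, 4.18 and 3.01% in Ag and 1.87, 2.11, 1.91, 1.46 and 0.992% in Ag+Costim. Its PSI table values were 5.02 and 2.76%. The exon of Anapc1 (chr2:128680109-128680209, minus strand), the scaffold subunit of the anaphase-promoting complex, had 2.37, 0.576, 1.89, 1.12 and 1.07% in Ag and 0.133 to 0.430% in Ag+Costim, while its PSI table values were 2.80 and 2.69%. The Ptch1 exon (chr13:63545237-63545306, minus strand), in the Hedgehog receptor gene, had 20.3 to 87.7% in Ag and 6.95 to 13.1% in Ag+Costim. That is far above its PSI table values of 7.19 and 1.98%, which have an entropy of 0, in a gene of 12.3 CPM. The Zhx1 exon (chr15:58069319-58069429, minus strand) lies in the 5′ UTR of a transcriptional repressor gene, overlaps Gm29394 and had 0.380 to 1.29% in Ag and 0.030 to 0.252% in Ag+Costim. The PSI table had it the other way, at 0.424% in Ag and 0.60% in Ag+Costim.

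Exons of splicing factor genes had low residual skipping in either group. Their median gene level was 224 CPM, against 54.4 CPM over all near-constitutive exons, and its part was not tested. For 523 near-constitutive exons in 56 of 60 listed genes for exon definition and splicing factors, median skipping was 0.059% in Ag and 0.027% in Ag+Costim; 465 were higher in Ag (88.9%, against 88.6% of all near-constitutive exons), and 12 and 4 passed 1 percentage point toward Ag and Ag+Costim. An exon of Rbm25, which encodes a splicing regulator, was skipped in 4.21% of transcripts in Ag and 5.29% in Ag+Costim. Of 21 of these exons tested in limma, 0 were called and 0 had an unadjusted p under 0.05. As to the levels of the genes, edgeR called 0 of the 60 (0% of all 24262 genes tested), 33 were higher and 0 lower in Ag+Costim at an unadjusted p under 0.05 (18.6% of all genes in either direction), and DESeq2 called 20 (14.3% of all genes). The Ag+Costim libraries lay above all Ag libraries for 22 (4.48% of all genes) and below them for 0 (1.13% of all genes), with a median log2 fold change of 0.54 for the list and −0.32 over all genes tested. The 7551 genes that hold near-constitutive exons had a median log2 fold change of 0.25. Of them, edgeR called 0 (0% of all genes), and 1819 had an unadjusted p under 0.05 (24.1%, against 18.6% of all genes). DESeq2 called 840 of these 7551 genes, against 6214 of the 43379 genes to which it gave an adjusted p (14.3%).

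The T cell receptor and signalling genes had the higher median in Ag+Costim, while most of their exons were still higher in Ag. Over 319 exons in 25 of 26 genes the medians were 0.065% in Ag and 0.083% in Ag+Costim, although 245 exons (76.8%) were higher in Ag, and 5 and 8 passed 1 percentage point toward Ag and Ag+Costim. Ptprc, the CD45 phosphatase gene, held 25 of these exons, and 17 of them were higher in Ag+Costim. Without Ptprc the medians were 0.0955 and 0.0855%, and 237 of 294 were higher in Ag. With an entropy above 0, however, only 50 of 123 exons of the list were higher in Ag, against 59.3% of all near-constitutive exons of that class. Ptprc held 24 of these 123. The Ptprc exons ranged from 0.015 to 1.28% in Ag and 0.008 to 1.81% in Ag+Costim. The most skipped exons of the list were 1 of Cbl, a ubiquitin ligase that dampens receptor signalling, at 5.28 and 1.96%, and 1 of Malt1, the paracaspase of NF-κB signalling, at 5.55 and 0.682%. From transcript counts the Cbl exon had 0 to 29.4% in Ag and 11.5 to 31.1% in Ag+Costim (limma, adjusted p = 0.729), so the libraries overlapped.

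Receptor, effector and transcription factor genes leaned toward Ag as most exons did. The costimulatory, cytokine and homing receptors had 177 exons with medians of 0.039% in Ag and 0.023% in Ag+Costim, and 166 higher in Ag; exon 3 of 4 of Cd28 stood highest, at 5.48 and 3.97%, and an Itgb7 exon followed at 3.42 and 2.74%, for which the transcript counts gave only 0.032 ± 0.0068% and 0.021 ± 0.0030% (mean ± SD of 5 libraries). The cytotoxic effector genes had 46 exons with medians of 0.0895 and 0.0165%, 40 of them higher in Ag, led by exons of the killer cell lectin-like receptors Klrd1 (2.89 and 2.65%) and Klrg1 (3.25 and 1.44%). For the Klrd1 exon the transcript counts gave 1.34 to 3.40% in Ag and 1.75 to 10.2% in Ag+Costim. For each list the exons named are those with the most skipping on the mean of both groups, and single values in a group can be higher, up to 7.17% in Ag+Costim for the transcription factors and 6.97% for the cell cycle genes. The transcription factors had 274 exons with medians of 0.166 and 0.0825%, 24 and 12 past 1 percentage point. The most skipped on the mean of both groups were a 5′ UTR exon of Bach2 (4.15 and 5.42%) and an exon of Runx1 (3.79 and 5.22%), both higher in Ag+Costim. The Bach2 exon had an entropy of 0, in a gene of 24.7 CPM in Ag and 7.79 in Ag+Costim. Transcripts over it had 0 counts in Ag replicate 3, so its value is uncertain. The Runx1 exon overlaps Gm26626.

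**Figure D5:**
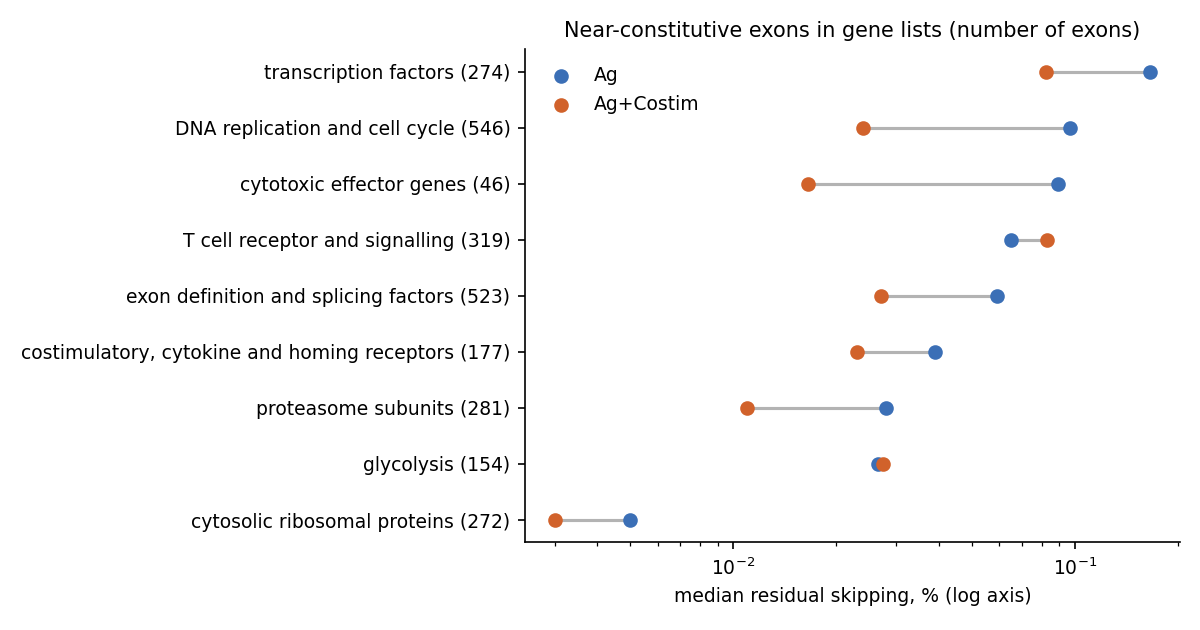
Median residual skipping (horizontal axis, %, log scale) of the near-constitutive exons in each gene list (vertical axis, with the number of exons) in Ag (blue) and Ag+Costim (orange). Ribosomal protein genes lie lowest, at 0.005 and 0.003%, and transcription factors highest in Ag, at 0.166%. The median gene level over exons was 471 CPM in the former list and 131 CPM in the latter.

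Ribosomal protein genes had the lowest median skipping of all lists and also the highest median gene level over exons, 471 CPM. The transcription factors, highest in Ag, had the lowest level of the lists, 131 CPM, and all near-constitutive exons had 54.4 CPM. The part of gene level in the order of the lists was not tested. The cytosolic ribosomal protein genes had 272 exons with medians of 0.005% in Ag and 0.003% in Ag+Costim and none past 1 percentage point; exons of Rpl17 (1.83 and 2.55%) and Rpl18 (0.163 and 0.242%) were the most skipped. Proteasome subunit genes had 281 exons with medians of 0.028 and 0.011%, led by Psmd5 (3.28 and 2.26%) and Psma3 (0.772 and 0.885%). DNA replication and cell cycle genes had 546 exons with medians of 0.097 and 0.024%, 21 and 8 past 1 percentage point; the most skipped on the mean of both groups were exons of Smc4, a condensin subunit (6.77 and 2.83%), and Pole, a DNA polymerase subunit (3.84 and 4.75%). In this list the median log2 fold change of gene level was 0.87 (−0.32 over all genes tested), and 12 of 41 genes were higher in every Ag+Costim library than in any Ag library (4.48% of all genes). Of the 41, edgeR called 0 (0% of all genes), and 7 had an unadjusted p under 0.05 (18.6% of all genes). DESeq2 called 4 (14.3% of all genes). Glycolysis genes had 154 exons with medians of 0.0265 and 0.0275%, and their 11 exons past 1 percentage point all leaned to Ag. Of these, 10 lay in Hk2, hexokinase 2, whose level of 10.04 CPM is just above the limit of the rule. All 14 near-constitutive exons of Hk2 had an entropy of 0, the class in which 98.0% of exons leaned to Ag. In limma 0 exons of any list were called, and 3 of the 104 tested, 1 each in ribosomal, proteasome and cell cycle genes, had an unadjusted p under 0.05, against 8.66% of all exons tested.

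Genes of lymphocyte identity showed the range within single genes. All 4 exons of Cd3e, a chain of the T cell receptor complex, had an entropy of 0 and residual skipping of at most 0.015% in Ag and 0.010% in Ag+Costim. The 2 near-constitutive exons of Cd8a, out of 3 core exons, had at most 0.010 and 0.026%. Ikzf1, the Ikaros gene known for alternative splicing of its zinc finger exons, had only 3 of its 7 core exons in the set, at 0.114 to 0.340% in Ag and 0.031 to 0.103% in Ag+Costim. Stat4, which acts after interleukin-12, had 20 exons with medians of 0.207 and 0.0655%, 17 of them higher in Ag, yet its most skipped exon, exon 4 of 24 (chr1:52065315-52065413, plus strand), had 2.81% in Ag and 4.26% in Ag+Costim. The 4 exons of Tardbp, the TDP-43 gene, were skipped in 0.053 to 0.083% in Ag and 0.022 to 0.036% in Ag+Costim.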

How the data were processed

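RNA of sorted CD8+ T cells was amplified with SMART-Seq v4 and sequenced as paired reads. The authors aligned reads to mm10 with HISAT2 2.1.0 and SAMtools 1.9 and deposited estimated counts (expected counts, rounded by the authors, not normalised) per gene and transcript from StringTie 2.1.0; they derive from coverage, so totals are not numbers of reads. Their Whippet table, with the version not given in the sources used here, holds for each event a deposited fraction (PSI) per group, with no library values, and a deposited entropy score; its columns of PSI difference and probability are the authors' own comparison and were not used, so the probability limit of the naming rule was dropped. The submitters' processing notes also list R 4.0.5 and DESeq2 1.30.1.

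CPM is a gene's count over the sum of all mouse gene rows; rows without a gene ID held 0.0458 to 0.308% of counts. Events were matched to GENCODE M21 by symbol, strand and position; 2229 exons without a single match were left out. Inclusion per library was the counts of transcripts holding the exon against those spanning it, tested by limma 3.58.1 (robust, trended eBayes on log2 of the ratio with a pseudocount of 1) where included plus skipped counts averaged 100 or more and skipped counts 10 or more. Gene levels were tested by edgeR 4.0.16 (quasi-likelihood, TMM), with DESeq2 1.42.0 as alternative (R 4.3.3). P-values were adjusted by Benjamini-Hochberg over all features tested. Both tests were tested on simulated data with known changes.

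Exons named were the 4 with the largest PSI difference and the 4 with the lowest adjusted p without overlap in each direction, those next to each limit, the 2 most skipped of each gene list and those of Ikzf1, Tardbp, Stat4, Ptprc, Cd8a and Cd3e. Some exons that this rule names are not reported here. Members and lists were chosen with earlier results of these data known. Alternatives were other pseudocounts, filters and scalings, a replicate block, library weights and leaving out each library. Sequences of introns were not used here. Libraries are separate biological replicates in the study's methods.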

Additional observations from a re-analysis of the deposited data

Results flagged for a closer look

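In 20 groups of 5 values (8 exons, the summed share and the depth in each group) 2 had an extreme library by Dixon's criterion, which chance alone flags in about 1 of 20 groups. For the called exons all Ag values were 0, so those groups could not be flagged. The Mpv17 exon was skipped in 2.31% of counts in Ag+Costim replicate 5, against 1.25 to 1.41% in the other Ag+Costim libraries. The Zhx1 exon was skipped in 0.252% of counts in Ag+Costim replicate 3, against 0.030 to 0.080% in the others. No cause was tested.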

How the results depend on the processing

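The count of 4 called near-constitutive exons became 0 on untransformed percents and 0 with a replicate block (adjusted p of the 4 from 0.0622 to 0.169), and 32 with quality weights per library; leaving out 1 library gave 5 to 34. Deviations of same-numbered libraries had correlations of −0.040 to 0.032 over exons and −0.335 to 0.184 over genes. Over exons no pair of libraries across the groups passed 0.059, so whether the numbers pair samples cannot be told. The cause of the shifts in the count was not tested. The 8 exons named from this test were chosen because their groups did not overlap. This choice largely fixed their direction, which held in all 128 alternative fits. In 9 of these fits a called exon no longer passed the threshold. For the 7551 genes holding the exons, edgeR called 0 under every setting, block included. DESeq2 called 840 of the 7551, against 6214 of the 43379 genes to which it gave an adjusted p (14.3%). The share of exons with more skipping in Ag, 88.6%, was 91.7% at a mean PSI over 0.99, 90.1% at 100 CPM, 89.0% with 10 CPM in each library and 92.5% with 1 median per gene; added after seeing the data, it was 59.3% above entropy 0 and 58.5% above entropy 0 at 100 CPM. Of exons past 1 percentage point, 81.7% leaned to Ag, and under these settings 90.5, 60.4, 77.3, 88.6, 68.7 and 55.7%; past 2 points it was 80.7%. The summed skipping difference of 0.022 points was −0.151 above entropy 0, −0.042 on the mean over exons, −0.061 with only protein_coding spanning transcripts and −0.021 to 0.068 without 1 library. The 5 libraries per group and 1 PSI value per group limit what could be tested.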

Other observations

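Gaps between the groups gathered in some genes. The 9130 exons with a gap of at least 1 percentage point lay in 2652 genes; 1255 of these genes held a single such exon, whereas 216 genes held 10 or more, which came to 41.8% of these exons. In Chd9, whose 22 near-constitutive exons all had an entropy of 0, 8 passed 1 point toward Ag and 4 toward Ag+Costim. Trp53bp1 had 1 such exon toward Ag and 4 toward Ag+Costim out of 25, and Trappc6b had 2 toward Ag+Costim out of 4, the called exon not being among them.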
